A study of Rattus norvegicus with 20 samples.

Results

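The genes described here code for the proteins that hold neighbouring cells together and let them exchange small molecules: claudins, connexins, cadherins, protocadherins, occludin and the zonula occludens scaffolds. They were taken by name from the array, as every gene name that begins Cldn, Gja to Gje, Cdh, Pcdh or Tjp followed by its number or letters, with Ocln and Cx39, leaving out the endothelial cadherin Cdh5. This gave 93 of the 35804 gene names on the array, read by 121 probes. The arrays measured RNA of foetal testes from Han Wistar rats, and the series asked how TOTM (tris(2-ethylhexyl) trimellitate) acts on transcripts linked to testicular maldevelopment. Dams were gavaged once a day, from gestation day 12 through day 19, with corn oil as the control, or with 500 mg/kg of DEHP (the plasticizer di(2-ethylhexyl) phthalate), its monoester MEHP, TOTM or a compound named in the labels only as EHO. Every group had 4 arrays, and an array carried RNA pooled from the testes of 3 or more littermates.

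Tight junctions seal the space between epithelial cells, with claudins and occludin as the membrane strands and the Tjp proteins as the scaffold beneath them. Connexins assemble into gap junction channels, through which neighbouring cells share ions and small metabolites. Cadherins bind their like on the next cell and anchor adherens junctions through catenins, while protocadherins are a large related group best known from neurons. In the testis, Cldn11 and Cldn3 belong to the Sertoli cell barrier, Gja1 couples Sertoli cells with each other and with germ cells, and Cdh2 joins Sertoli cells and germ cells.

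Each group lay on a slide of its own, scanned apart from the others, so compound and slide cannot be told apart in any comparison with control or between compounds. Replicates came from separate litter pools per the labels, and the p-values measure the spread between those pools. The MEHP arrays 1 and 2 lay closer together than the noise between repeated spots of 1 array (0.777 times that noise, where array pairs within a group had a median of 2.28) and were counted as 1 sample, which left 19 samples. Control 2 and MEHP 3, on different slides, differed by only 1.28 times the spot noise, and DEHP 3 and MEHP 4 by 1.36 times. Whether these arrays share RNA or carry a wrong label was not tested, and it bears on each comparison of control, DEHP and MEHP. The calls were therefore also made without each pair. Without DEHP 3 and MEHP 4, which also leaves fewer arrays for the pooled spread, 4 members were called with EHO against control (7.77% of all genes) in place of 14. The EHO arrays were dimmer: 46.1% to 63.5% of their spots were well above background, against 63.9% to 79.8% on the other 16 arrays. Sertoli cell markers were present (10 of 10 passed the filter on dim probes), as were gonocyte markers (8 of 8 on the array) and fetal Leydig cell markers (8 of 8). Of the Leydig markers, 7 were tested against control. Cyp17a1 was well above background on all 20 arrays but had no usable value in controls. In a whole testis, fewer cells of a type and less RNA in each cell cannot be told apart.

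Of the 93 members, 35 were well above background on all 20 arrays, 49 on some and 9 on none. The 9 were Cdh7, Cdh26, Cldn16, Gja6, Gjc3, Gjd2, Pcdh11x, Pcdhb15 and Pcdhb17. A gene entered the tests if at least 1 group had its probe well above background on each array, and 65 members did: 12 of 18 cadherins, 10 of 18 claudins, 15 of 19 connexins, 17 of 22 clustered protocadherins, 7 of 12 other protocadherins and all 4 of occludin and the Tjp scaffolds. The other 28 have no test, among them the kidney cadherin Cdh16, Cldn2, Cldn6 and Cldn8. Of the 65, 24 were well above background on every control array but not on every EHO array, so they entered through groups in which they were brighter. The number of members well above background was 57 to 81 per array in the other 4 groups and 38 to 59 on the EHO arrays. Levels below are log2 signals minus the 75th percentile of the array, so that 0 stands for that percentile.

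Against control, no member passed the test with DEHP, MEHP or TOTM, and 14 passed with EHO. A member was called at a Benjamini-Hochberg adjusted p under 0.05 from limma, adjusted over all genes tested. With DEHP, 0.00418% of all 23952 genes were called, with MEHP 0.964% and with TOTM 0.0209%, beside 0 of 65 members each time. At an unadjusted limma p under 0.05, 4 members were lower and 0 higher with DEHP (1.44% and 1.03% of all genes), 5 lower and 2 higher with MEHP (1.87% and 3.45%), and 7 lower and 0 higher with TOTM (4% and 4.2%). With EHO, 4 members were called higher and 10 lower, which is 21.5% of the 65, while 24.8% of all genes were called. By direction, the shares were 6.15% higher among members and 6.46% among all genes, and 15.4% lower against 18.3%. The median log2 difference of the members was -0.13 with DEHP, -0.10 with MEHP, -0.06 with TOTM and -0.22 with EHO, beside -0.03, -0.06, -0.04 and -0.18 over all genes. Of the 65, 49, 39, 43 and 41 lay below control in the same order, where 57.9%, 60.4%, 58% and 64.1% of all genes did.

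**Figure D1:**
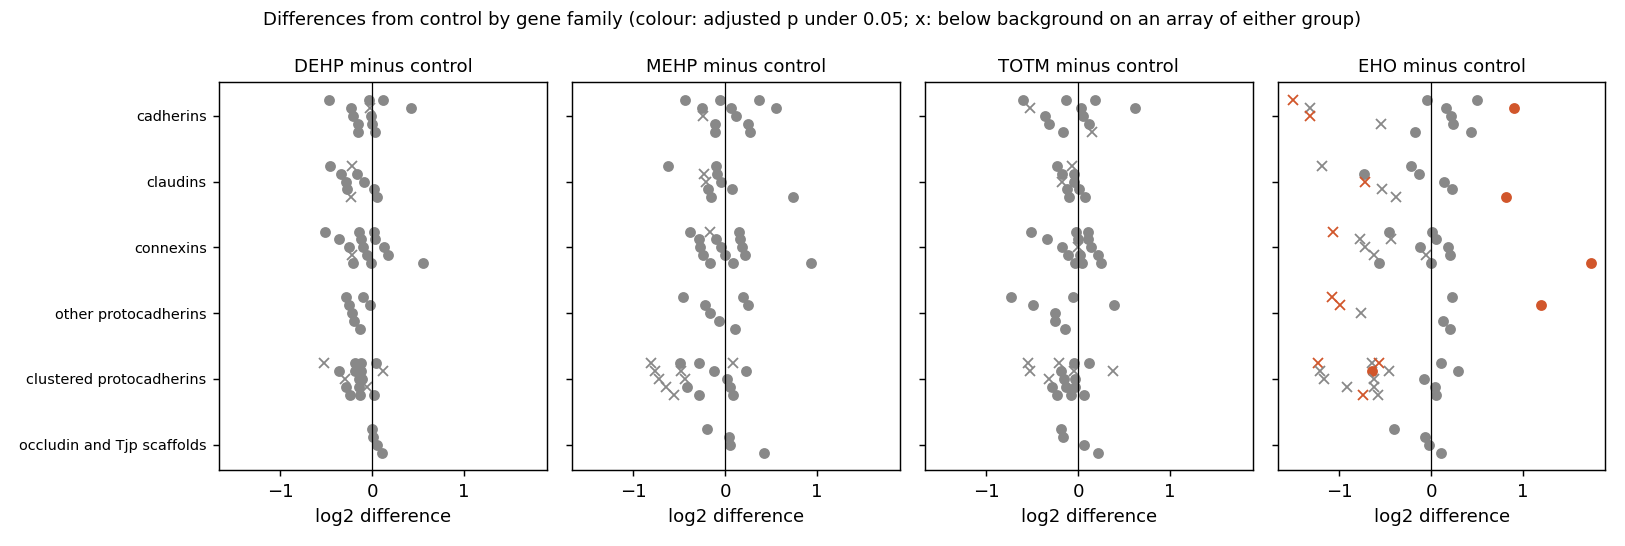
Log2 difference from control of the 65 tested members, by gene family, in 1 panel for each compound. Coloured points passed an adjusted p of 0.05, crosses mark genes below background on an array of either group, and points are spread vertically only for legibility. Coloured points appear with EHO alone, 4 to the right of 0 and 10 to the left, and 9 of those 10 are crosses.

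Pcdh7, a protocadherin outside the gene clusters that mediates adhesion between like cells, gave the lowest adjusted p with EHO. Its levels were 0.57, -0.25, -0.00065 and -0.25 on the 4 EHO arrays and -1.62, -1.17, -0.79 and -1.14 on the control arrays. Every EHO array was above every control array, and also above every array of the other compounds. The difference from control was 1.20 ± 0.21 (SE) in log2, or 2.29-fold, with an adjusted p of 0.00412 (limma). The probe lies at chr14:57321171-57321230 (rn4, minus strand).

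Cx39 (current symbol Gjd4), a connexin described in developing skeletal muscle, had the largest rise of the 4. It read 3.75, 2.82, 2.94 and 3.32 with EHO and 1.02, 0.87, 2.26 and 1.72 in controls. The EHO arrays lay above all controls, but the control arrays were themselves spread over more than 1 log2 unit. The difference was 1.74 ± 0.39, or 3.33-fold (adjusted p 0.0140). Its probe is at chr17:66004489-66004548 (rn4, minus strand).

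Cldn9, a tight junction claudin needed for hearing, read 1.30, 0.91, 0.62 and 1.60 with EHO and -0.07, 0.30, 0.30 and 0.62 in controls. The lowest EHO array and the highest control array had nearly the same value, 0.617 and 0.618. The difference was 0.82 ± 0.19, or 1.76-fold (adjusted p 0.0147), at a probe on chr10:12947844-12947903 (rn4, minus strand). Cdh22, a cadherin known from pituitary and brain, read 0.45, 0.61, -0.12 and -0.70 with EHO. Its controls lay close together, at -0.84, -0.91, -0.78 and -0.83. EHO 4 was thus near the control values, and the difference of 0.90 ± 0.28, or 1.87-fold, had an adjusted p of 0.0383. A further Cdh22 probe, also above background on all 20 arrays, gave a log2 difference of -0.43 with EHO, so the array does not give this gene a single direction. The tested probe is at chr3:156155291-156155350 (rn4, minus strand).

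All 4 higher calls rest on the spread pooled over the 5 groups: with the EHO and control arrays alone, 0 members and 3 of all genes passed, and the adjusted p of Pcdh7 became 0.122. Without control 1, only Pcdh7 kept a call, with adjusted p values of 0.0549 for Cx39, 0.0600 for Cldn9 and 0.101 for Cdh22. Cdh22 also missed the threshold without any other single control array (adjusted p 0.0534 to 0.0833), without EHO 1 (0.117) and without EHO 2 (0.118).

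**Figure D2:**
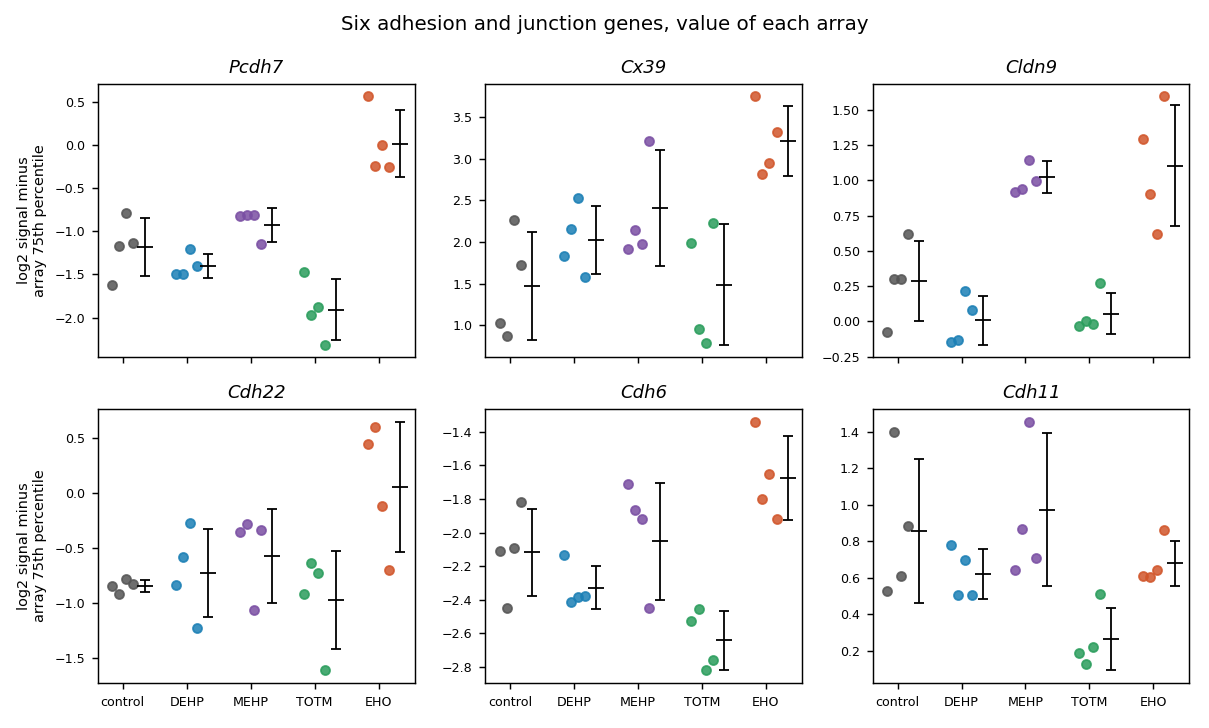
Levels (log2 signal minus the array's 75th percentile) of Pcdh7, Cx39, Cldn9, Cdh22, Cdh6 and Cdh11, a point for each of the 4 arrays of a group, with the group mean and SD as bars at the right of the points (MEHP 1 and 2 averaged first, so n = 3 there and 4 elsewhere). Pcdh7 is highest on the EHO arrays and low on TOTM arrays, and Cldn9 is high with MEHP and EHO.

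The stretches before the start sites of Pcdh7, Cx39, Cdh22 and Cdh6 are printed because these members, with Cldn9, had the largest log2 rises of EHO over TOTM, so that shared letters can be looked for. RefSeq gives promoters for 67 of the 93 members under their current symbols. The windows hold 250 bases up to the start of the gene, 5′ to 3′ on the strand of the gene, in the build GRCr8: chr14:57113523-57113772 for Pcdh7, chr17:62047528-62047777 for Cx39, chr3:174389893-174390142 for Cdh22 and chr2:63952288-63952537 for Cdh6, all on the minus strand. Capitals mark matches to CAGGTG (the E-box bound by Snail factors at cadherin promoters), GGGCGG (the GC box) or AGGTCA (a nuclear receptor half-site), searched on both strands.
Pcdh7: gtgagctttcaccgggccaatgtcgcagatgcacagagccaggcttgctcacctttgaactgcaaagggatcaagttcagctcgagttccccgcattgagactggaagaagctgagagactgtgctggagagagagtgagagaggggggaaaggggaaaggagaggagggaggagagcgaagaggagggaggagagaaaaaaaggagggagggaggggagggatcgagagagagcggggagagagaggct
Cx39: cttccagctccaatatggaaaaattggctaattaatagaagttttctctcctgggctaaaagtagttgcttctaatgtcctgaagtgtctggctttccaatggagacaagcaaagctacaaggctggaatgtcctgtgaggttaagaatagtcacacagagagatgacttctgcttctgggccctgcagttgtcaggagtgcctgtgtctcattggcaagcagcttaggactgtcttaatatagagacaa
Cdh22: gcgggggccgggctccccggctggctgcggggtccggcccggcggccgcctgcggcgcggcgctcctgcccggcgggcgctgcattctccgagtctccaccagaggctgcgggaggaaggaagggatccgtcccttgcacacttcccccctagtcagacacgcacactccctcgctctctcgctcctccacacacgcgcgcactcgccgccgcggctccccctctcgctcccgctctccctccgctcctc
Cdh6: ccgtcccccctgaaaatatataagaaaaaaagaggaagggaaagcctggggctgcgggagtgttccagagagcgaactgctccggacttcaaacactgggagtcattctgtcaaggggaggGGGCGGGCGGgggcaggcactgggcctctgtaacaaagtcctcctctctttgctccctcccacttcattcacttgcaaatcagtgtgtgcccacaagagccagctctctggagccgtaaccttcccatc
Only Cdh6 held a match, 2 overlapping copies of GGGCGG, and none of the 4 held CAGGTG or AGGTCA in this window. Among 33469 promoters of the same length, 30.5% held GGGCGG, 15.9% CAGGTG and 14.1% AGGTCA. The share of G and C was 75.2% in Cdh22, 57.2% in Pcdh7, 56.0% in Cdh6 and 44.0% in Cx39, where the median over all promoters was 51.2%.

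The 10 members called lower with EHO were Cdh17 (-1.50 ± 0.49 in log2), Cdh10 (-1.32 ± 0.43), Pcdhb6 (-1.23 ± 0.40), Cdhr1 (-1.08 ± 0.36), Gjb1 (-1.07 ± 0.37), Pcdh8 (-0.99 ± 0.32), Pcdhb4 (-0.75 ± 0.21), Cldn7 (-0.71 ± 0.22), Pcdhb5 (-0.64 ± 0.22) and Pcdhga9 (-0.56 ± 0.20), with adjusted p values from 0.0307 to 0.0474. Of these, Pcdhga9 lay above control under normexp background correction followed by quantile normalization (0.069, below called normexp). It also did under quantile normalization alone (0.089), as did Pcdhb4 (0.023). Cdh17 is the cadherin of liver and intestine, Cdhr1 belongs to photoreceptors and Gjb1 to liver and Schwann cells. Cdh17 read -5.01, -3.42, -2.06 and -1.59 on the EHO arrays, and -1.20, -1.75, -1.80 and -1.34 in controls. The low values came from EHO 1 and EHO 2, while EHO 4 lay within the controls. Cldn7, a claudin of epithelia, was below all controls on every EHO array, at -3.20, -2.49, -2.20 and -2.26 against -1.56, -2.10, -2.08 and -1.56. Pcdhb5 was the only one of the 10 well above background on every EHO array, and it read -1.80, -1.90, -0.89 and -0.75 with EHO against -0.58, -0.51, -0.98 and -0.72.

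Detection on the EHO arrays moved with these calls. Of the 37 members that all EHO and control arrays showed well above background, 4 were called higher and 1 lower, with a median difference of 0.10 and 24 above 0. Of the other 28 members, 0 were called higher and 9 lower, all 28 were below 0, and the median was -0.73. The same division held for all genes: of the 14952 that met that condition, 10.1% were called higher and 5.75% lower, and of the other 9000, 0.389% and 39.2%. Of those 9000, 95.2% lay below 0. Of the 28 members, 24 were well above background on every control array but not on every EHO array. Their values below 0 thus follow in part from the filter and the division. For Cdh10, Pcdhb4, Pcdhb6 and Pcdhga9 no EHO array was well above background, so the size of their differences is uncertain. Each EHO value was also raised to the lowest signal of any probe well above background on that array, where it lay below. Controls were then 1.15-fold higher for Cdh10, 1.13-fold for Pcdhb4, 1.20-fold for Pcdhb6 and 1.19-fold for Pcdhga9, under the 75th percentile scaling. The limit of a single probe may lie higher, so these are not strict bounds. Without EHO 1, EHO 2, control 1 or control 4, none of the 10 was called lower, and without control 3 the count of lower members was 3. Without EHO 3 or EHO 4 the count of lower members rose to 23 and 27, and the share of all genes called rose to 41.5% and 43.6%. The scaling moved the balance of calls as well: median scaling in place of the 75th percentile gave 15 members higher and 2 lower, and quantile normalization 8 and 1, while over all genes median scaling gave 5614 higher and 2634 lower. Median scaling shifted the median of all genes from -0.18 to 0.35.

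**Figure D3:**
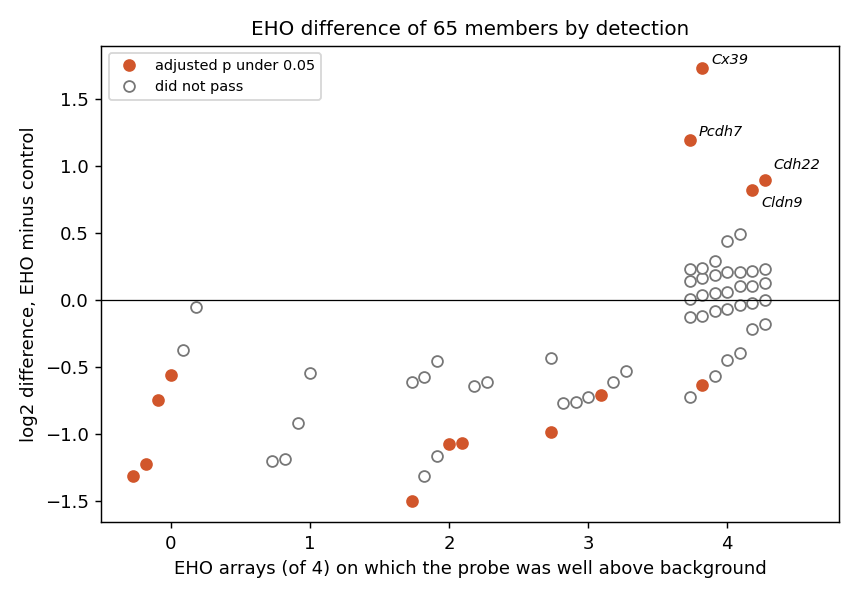
Log2 difference between EHO and control of the 65 tested members, against the number of EHO arrays on which the probe was well above background (points are spread sideways within a number). Filled points passed an adjusted p of 0.05. The 4 higher genes stand at 4 arrays, and the lower ones lie at 0 to 3 arrays apart from Pcdhb5.

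Of the members higher with MEHP, the monoester of DEHP, Cldn9 had the lowest p. It read 0.92, 0.94, 1.15 and 0.99 on the 4 MEHP arrays, all above the highest control at 0.62, and the controls reached down to -0.07. The difference was 0.74 ± 0.20 (limma p 0.00186, adjusted p 0.134), and so it did not pass. Cx39 read 1.92, 2.14, 1.98 and 3.21 with MEHP, with a difference of 0.94 ± 0.42 (adjusted p 0.851); MEHP 4 was the only array above the highest control at 2.26. On the low side the members with an unadjusted p under 0.05 were Pcdhga9 (-0.81 ± 0.21), Pcdhgc3 (-0.71 ± 0.30), Cldn7 (-0.62 ± 0.24), Pcdhb4 (-0.55 ± 0.23) and Pcdhb22 (-0.29 ± 0.12). The MEHP samples lay wholly below the controls for 12 members and wholly above them for 1, which is 18.5% and 1.54% of the 65, where all genes gave 6.9% and 3.21%.

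With TOTM, the trimellitate triester, the 7 members with an unadjusted p under 0.05 were all lower, and none passed after adjustment (adjusted p 0.336 to 0.593). Pcdh7 read -1.47, -1.97, -1.88 and -2.32, and 3 of these lay below the lowest control at -1.62. Its difference was -0.73 ± 0.21. Cdh11, the cadherin of mesenchymal and bone-forming cells, read 0.19, 0.13, 0.22 and 0.51 with TOTM and 0.53, 1.40, 0.61 and 0.89 in controls. All TOTM arrays were below all controls, with a difference of -0.59 ± 0.19. Its 3 probes above background on all arrays had the same sign, at -0.59, -0.75 and -1.0. On the same TOTM arrays 3 of 6 peritubular and interstitial markers lay below control, Nr2f2 (-1.02, limma adjusted p 0.0551), Pdgfra (-0.37) and Tcf21 (-0.33). The other 3 lay above it, Lum (0.26), Des (0.20) and Dcn (0.07), and 0 of the 6 were called. The part of peritubular and interstitial cells in the Cdh11 difference was not tested. Cdh6, a cadherin of kidney and other embryonic epithelia, read -2.53, -2.46, -2.82 and -2.76 against -2.11, -2.45, -2.09 and -1.82, a difference of -0.52 ± 0.17. For Cdh6, too, no TOTM array reached the controls. Pcdh9, a protocadherin prominent in the nervous system, differed by -0.50 ± 0.14 and Cdh2, the N-cadherin of Sertoli and germ cells, by -0.31 ± 0.14, both without overlap. Pcdhga9, well above background on 2 of the 4 TOTM arrays, differed by -0.54 ± 0.20, also without overlap. No overlap on the low side was found for 7 members, 10.8% of the 65 against 3.35% of all genes, and for 0 on the high side, where all genes gave 3.76%.

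With DEHP, the differences ran from -0.52 to 0.55 over the 65 members. Cldn14, a claudin of the inner ear and kidney, read -2.47, -2.32, -2.39 and -2.58 against -1.90, -2.11, -2.25 and -2.14, a difference of -0.34 ± 0.10. Gjd3 (-0.36 ± 0.16) and Pcdhga9 (-0.52 ± 0.20) also had an unadjusted p under 0.05. No overlap on the low side was found for 5 members, 7.69% against 1.78% of all genes, and on the high side for 0 (0.894% of all genes).

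The compounds were also compared with one another at their common dose of 500 mg/kg, equal by mass and not by mole, in 6 pairs with p-values adjusted over all genes within each pair. MEHP differs from DEHP by the loss of a 2-ethylhexyl ester group, and TOTM carries an ester group more than DEHP on its ring. Between MEHP and DEHP, 1 member passed (1.13% of all genes were called, 1.12% higher): Cldn9 was higher with MEHP by 1.02 ± 0.20, or 2.03-fold (adjusted p 0.0142). The DEHP arrays read -0.14, -0.13, 0.22 and 0.08 and so lay well below the MEHP arrays. Between TOTM and DEHP, 0 members passed, as did 0 of all 24272 genes (0%), with 2 members higher and 1 lower at an unadjusted limma p under 0.05 (0.898% and 2.12% of all genes). The intervals show how far apart these could be: the 95% interval of TOTM minus DEHP was -0.34 to 0.44 for Cldn9, -0.95 to -0.06 for Pcdh7 and -0.20 to 0.25 for Cldn11.

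Between TOTM and MEHP, 2 members passed (1.52% of all genes, 1.42% lower), both lower with TOTM: Cldn9 by -0.97 ± 0.20 (adjusted p 0.0183) and Pcdh7 by -0.98 ± 0.23 (adjusted p 0.0356). The Cldn9 values with TOTM were -0.03, 0.0025, -0.02 and 0.27, which all lay below the MEHP arrays. These calls hung on few arrays. TOTM against MEHP, Cldn9 missed the threshold without MEHP 3, MEHP 4, TOTM 1, TOTM 2 or TOTM 3 (adjusted p 0.0549 to 0.0977) and Pcdh7 without MEHP 3, MEHP 4, TOTM 2, TOTM 3 or TOTM 4 (0.0529 to 0.167). MEHP against DEHP, Cldn9 missed it without DEHP 1, DEHP 2, MEHP 3 or MEHP 4 (0.0523 to 0.0943), and under median scaling all 3 calls were lost (0.228 to 0.351), as they were without DEHP 3 and MEHP 4 together (0.0735 to 0.0835). EHO against MEHP gave 0 calls among members (0.305% of all genes), with 4 higher and 5 lower at an unadjusted limma p under 0.05 (6.73% and 17.1% of all genes). There the 95% interval of the difference was -0.34 to 0.50 for Cldn9, 0.47 to 1.42 for Pcdh7 (adjusted p 0.0704) and -0.09 to 1.69 for Cx39.

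EHO against DEHP gave 4 members, all higher with EHO, where 6.63% of all genes were called, 3.63% higher: Pcdh7 (1.42 ± 0.21), Cldn9 (1.10 ± 0.19), Cdh6 (0.65 ± 0.17) and Pcdhb13 (0.48 ± 0.12). Without any single DEHP array or without EHO 1, Cdh6 (adjusted p 0.0502 to 0.111) and Pcdhb13 (0.0510 to 0.103) were not called. Pcdhb13 is a clustered protocadherin, and its other probe differed from control by -1.13 with EHO where the tested one differed by 0.29. EHO against TOTM gave 15 members, 7 higher and 8 lower with EHO, which is 23.1% beside 21.6% of all genes (8.33% higher, 13.3% lower). The higher ones were Pcdh7 (1.92 ± 0.21, or 3.79-fold, adjusted p 7.58e-05), Cx39 (1.72 ± 0.39), Cldn9 (1.05 ± 0.19), Cdh22 (1.03 ± 0.28), Cdh6 (0.96 ± 0.17), Pcdh9 (0.62 ± 0.14) and Cdh2 (0.53 ± 0.14). Cdh6 read -1.34, -1.80, -1.65 and -1.92 with EHO and was well above background on 3 of the 4 TOTM arrays. The lower ones included Cdh10, Cdh15, Cdhr1, Cldn7, Gja12, Pcdhb1 and Tjp3, of which Tjp3 alone was well above background on every EHO array. The calls of Cdh22 and Cdh2 were lost without EHO 1 or EHO 2, and the count ranged from 6 without EHO 1 to 31 without EHO 4. The order of the groups in Pcdh7, from low to high, was TOTM, DEHP, control, MEHP and EHO, with means of -1.91, -1.40, -1.18, -0.93 and 0.02 and SDs of 0.35, 0.14, 0.34, 0.19 and 0.39. No neighbours in that order differed in the test, and MEHP and EHO came closest (adjusted p 0.0704).

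In the main processing, none of the members with known places in the testis was called against control with any compound. Other settings gave some calls with EHO, all higher. Under median scaling these were Cldn3 (0.67, limma adjusted p 0.0352), Cdh2 (0.74, 0.048) and Cdh3 (0.77, 0.0243), where the median of all genes was 0.35. Cdh3 was also called under quantile normalization (0.34, adjusted p 0.0458), and Cdh2 without EHO 3 (0.34, adjusted p 0.0425). Cldn11, the claudin of the Sertoli cell barrier, read -0.77, -0.97, -0.82 and -0.96 in controls, -0.97, -0.80, -0.76 and -0.80 with DEHP, and -0.69, -0.84, -0.98 and -0.74 with TOTM. With MEHP it read -1.21, -1.21, -1.10 and -0.79, and with EHO -1.12, -1.01, -0.99 and -0.93. All groups overlapped the controls. The 95% intervals against control were -0.17 to 0.27 with DEHP, -0.39 to 0.09 with MEHP, -0.15 to 0.30 with TOTM and -0.35 to 0.10 with EHO. Gja1 (Cx43), the main connexin of Sertoli and Leydig cells, read 2.12, 2.7, 2.07 and 2.38 in controls and had group means between 2.17 and 2.53. Its differences from control were -0.14, 0.19, -0.0012 and 0.21 with DEHP, MEHP, TOTM and EHO, each with an SE of 0.20 to 0.22.

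Cldn3, a claudin of the forming Sertoli barrier, differed by -0.27 ± 0.14 with DEHP and by -0.12 to 0.14 with the others. Occludin differed by 0.43 ± 0.22 with MEHP and by -0.18 to 0.11 otherwise, and both of its probes gave about the same value with MEHP (0.43 and 0.40). Tjp1, the scaffold ZO-1, stayed within -0.16 to 0.06 of control at the tested probe, while a further probe above background on all 20 arrays gave -0.38 with TOTM and -0.18 with MEHP. Of the vessel genes, the endothelial claudin Cldn5 differed by -0.18 to 0.23, Gja4 by 0.00 to 0.17 and Gja5 by -0.51 to 0.19. Gjb2 and Gjb6, connexins of epithelia, differed by -0.45 ± 0.31 and -0.72 ± 0.39 with EHO, and Gja7 (current symbol Gjc1), a connexin of muscle and vessel walls, by -0.04 to 0.04 with all 4. Cldn1, a claudin of many epithelia, had the widest difference of this group: it read -4.78, -4.81, -2.78 and -2.35 with EHO and -1.89, -3.10, -2.95 and -2.03 in controls. The low values were those of EHO 1 and EHO 2, only 1 EHO array was well above background, and the difference of -1.19 ± 0.50 did not pass (adjusted p 0.0771), though it did without EHO 3 (0.0303) or EHO 4 (0.0118). E-cadherin (Cdh1) differed by 0.55 ± 0.49 with MEHP; it ranged from -1.38 to 0.43 over the controls alone, which left intervals as wide as -1.11 to 0.81 with DEHP. With EHO, the sign of several of these differences hung on the scaling: under median scaling Cldn11 (0.40), Tjp1 (0.51), Cdh11 (0.35), Cdh13 (0.49) and Gjb2 (0.077) lay above control instead of below.

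**Figure D4:**
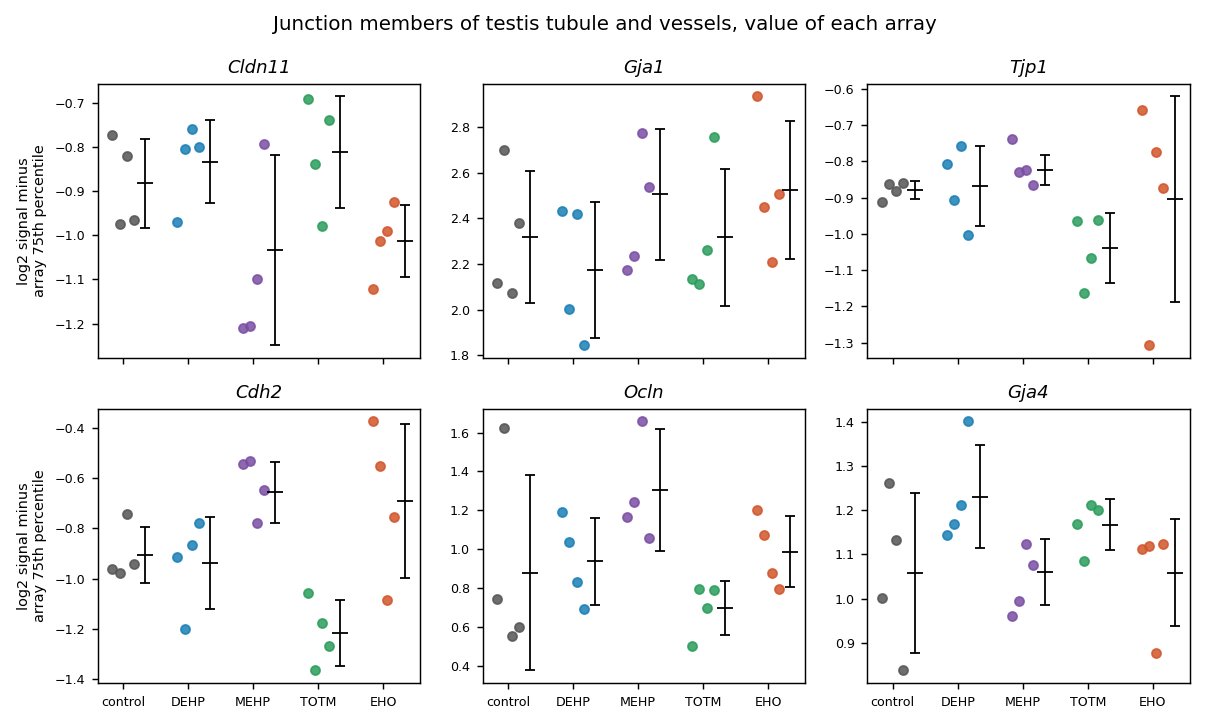
Levels (log2 signal minus the array's 75th percentile) of Cldn11, Gja1, Tjp1, Cdh2, Ocln and Gja4, a point for each of the 4 arrays of a group, with the group mean and SD at the right (n = 3 for MEHP after averaging MEHP 1 and 2, otherwise 4). The groups overlap the controls in each panel, except that the TOTM arrays of Cdh2 and Tjp1 and no others lie below all controls.

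By family, the clustered protocadherins had the lowest median with MEHP (-0.41, 12 of 17 below 0) and with EHO (-0.62, 13 of 17 below 0) under the 75th percentile scaling. With DEHP (-0.14) and TOTM (-0.13) they did not: the claudins were lowest with DEHP (-0.23) and the other protocadherins with TOTM (-0.25). These are cell-surface recognition proteins whose variants are made from neighbouring exons of a gene cluster. The EHO median was 0.03 under quantile normalization and 0.06 with normexp, with 10 of 17 above 0, so no direction with EHO holds over the scalings; with MEHP it stayed below 0 at -0.24, -0.05 and -0.25 under quantile, normexp and median scaling, beside -0.01 over all genes under normexp. Only 5 of the 17 were well above background on all 20 arrays. Over all families, the 12 members below background on some MEHP or control array had a median of -0.46 with MEHP (11 below 0), and the other 53 a median of -0.04 (28 below 0). Of all genes divided in this way, 79.4% and 58.2% lay below 0. The other 5 families had medians between -0.23 and 0.03 with DEHP, -0.12 and 0.05 with MEHP, -0.25 and 0.00 with TOTM and -0.30 and 0.13 with EHO. The claudins changed sign with EHO, from -0.30 to 0.08 under quantile normalization. All 7 of the other protocadherins were below 0 with DEHP (median -0.20), where 57.9% of all genes were, and none was called; under median scaling 5 of the 7 were below 0 (median -0.09).

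Of the genes that work beside these proteins (catenins, nectins, junctional adhesion molecules, polarity proteins and desmosome proteins), 29 of the 30 on the array were tested. With DEHP and MEHP 0 of 29 were called, and 0 had an unadjusted limma p under 0.05. With TOTM 0 of 29 were called, with 3 lower and 0 higher at an unadjusted limma p under 0.05. The nearest was Pkp4, an armadillo protein that binds cadherins, at -0.96 ± 0.17 (adjusted p 0.0551). With EHO, 6 were called higher and 3 lower, where 6.46% and 18.3% of all genes were (10.1% and 5.75% of those well above background on all EHO and control arrays). Dsp, the plaque protein of desmosomes (0.81 ± 0.26), Pkp4 (0.75 ± 0.17), Jup, or plakoglobin (0.72 ± 0.21), Nectin2 (0.53 ± 0.18), Magi3 (0.45 ± 0.13) and Ctnna1, or alpha-catenin (0.44 ± 0.13) were higher. Ctnna2, Pvrl1 and Marveld2 were lower, at -0.96, -1.39 and -1.50, and were well above background on 2, 3 and 2 of the 4 EHO arrays. The 6 higher genes were above background on all 20 arrays. Beta-catenin (Ctnnb1) differed by -0.27 ± 0.18 with EHO and by -0.09 to 0.00 with the others. The count with EHO ranged from 0 without EHO 1 to 12 without EHO 4.

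Among the markers of other cells, the 6 peritubular and interstitial ones all lay above control with EHO (median 0.50), and Lum (1.09), Des (0.61) and Nr2f2 (0.58) were called higher. Their summed level, as a multiple of the 75th percentile, was 43.8 to 63.0 with EHO, 31.8 to 44.7 in controls and 25.9 to 37.5 with TOTM. Of 5 mesonephric duct and epididymal markers, Krt19 (0.85) and Pax2 (0.41) were called higher and the other 3 lay below control, among them Epcam at -0.11 and Lhx1 at -1.63, for a median of -0.11 and a summed level of 5.50 to 6.53 against 4.58 to 5.01. Of 7 endothelial markers 3 lay above and 4 below control (median -0.09), with Emcn (0.51) called higher and Flt1 (-0.91) lower, and a summed level of 18.6 to 30.5 against 13.9 to 22.8. Of 5 macrophage markers 3 lay above control and Cd163 (-1.53) was called lower, with a summed level of 2.46 to 5.51 against 2.82 to 3.74. None of the 3 erythroid markers was called, and their summed level was 21.3 to 52.8 against 16.1 to 23.0. Of 10 Sertoli cell markers 8 lay below control (median -0.22) and 1 was called higher, with a summed level of 113 to 149 against 115 to 152. Of 7 fetal Leydig cell markers 3 lay above and 4 below control (median -0.17), with 1 called higher and 1 lower. The summed level of the Leydig list was 164 to 235 with EHO and 76.7 to 109 in controls. The control sum lacks Cyp17a1, which had no usable control value, so the 2 sums may not hold the same genes. Of 8 gonocyte markers 4 lay above and 4 below control (median -0.08), with 0 called higher and 1 lower, and a summed level of 28.9 to 41.1 against 31.7 to 42.8. The part of these cells in the differences of Pcdh7, Cx39, Cldn9, Cdh6 and the other members was not tested.

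Where a gene had several probes well above background, these sometimes differed. The other Pcdh9 probe read 0.73 with EHO where the tested one gave 0.13, and both were lower with TOTM (-0.39 and -0.50). Pcdh17 was -0.76 at the tested probe and 0.26 at a probe above background on all arrays, both with EHO. Among 4 probes of Tjp1, 3 differed from control by -0.27 to 0.13 with EHO and the fourth, above background on 19 arrays, by -0.97 (and by -0.30 with MEHP).

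The authors' deposited table lists probes they took as altered by each compound, giving for each a signed fold and a p-value whose test is not stated. Members hold 121 of the 41012 probes on the array. They make up 0.19% of the probes listed for EHO, 0.183% for MEHP and 0.212% for TOTM in the authors' deposited table. The signs of all listed probes are not given here, so the signs of the member probes have no base beside them. For DEHP it lists no probe of a member among 1004. For EHO it lists 8 of 4210 probes, all with a positive fold, led by Cx39 (2.62), Pcdh7 (2.25) and Cdh22 (1.98) in the authors' deposited table. Cldn3 (1.39) and Cdh3 (1.35) are also among these 8 in the authors' deposited table. For TOTM the authors' deposited table lists 7 of 3298, all negative, which are Cdh11 at 2 probes (-1.99 and -1.61), Pcdh7 (-1.70), Cdh6 (-1.44), Pcdh9 at 2 of its 3 probes (-1.41 and -1.28) and Tjp1 (-1.26). For MEHP the authors' deposited table lists 7 of 3827, of which 6 are positive, and Gja7 is negative at -1.10. The positive ones in the authors' deposited table include Cdh22 at 1.5, Cldn3 and Pcdh9 at 1.4, and Cdh2 and Cdh3 at 1.3. At the same probes, the log2 differences with MEHP found here were -0.09 for Cldn3, -0.06 for Cdh3, 0.25 for Cdh2 and 0.27 for Cdh22, and none was called. Cldn9 is not among the listed probes of any compound.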

How the data were processed

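One-colour Agilent rat arrays were read with Feature Extraction 9.5.3.1, per the file headers (9.5 per the submitters' processing notes), with probe coordinates on rn4. The deposited intensity used is the authors' processed signal, background-subtracted on each array and not scaled between arrays. The authors' deposited table gives a signed fold and a p-value per probe, of unstated test.

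From log2 of the intensity, the 75th percentile over all non-control spots of the array was subtracted; spots flagged as outliers were then left out, repeated spots averaged, and probes kept if at least 1 group had them well above background on each array (28133 of 41012). The probe with the highest mean signal stood for a gene (24272 genes, 23952 with control values). limma 3.58.1 (R 4.3.3, data.table package, version 1.17.8) fitted 1 mean per group over 19 samples, with 14 residual and 2.53 prior degrees of freedom; Benjamini-Hochberg adjustment ran over all genes of a comparison. The script was tested on simulated data. The number of arrays limits the precision.

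Named members were 20 genes with known places in testis or neighbouring epithelium, all called members, and the 3 largest differences each way among those that both groups showed above background on each array. The members, the list of 30 junction partners and the 8 marker lists were chosen with earlier results of these data known. A few members enter the counts and are not reported by name here. Current symbols came from RefSeq (GRCr8): all 93 names matched, 50 of them by accession. Same-numbered arrays did not deviate together across groups, so replicate numbers were not used to pair them. Alternatives were normexp background correction (offset 50) followed by quantile normalization, called normexp here, quantile normalization alone and median scaling. The normexp and quantile settings thus share a scaling step. Other filters, 2-group fits, a block and leaving out arrays were also tried.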

Additional observations from a re-analysis of the deposited data

Results flagged for a closer look

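In 10 of 176 groups of 4 arrays (44 named members, 4 groups each), 1 array stood apart from the other 3 by more than Dixon's critical value at 95% for a group of 4; chance alone would pick out about 1 group in 20. Control 2 was high for Gja5 (1.44, with the other controls at 0.18 to 0.33) and for Gja7 (3.12, others 2.78 to 2.83). Control 3 was high for Cdh2 (-0.74, others -0.98 to -0.94). EHO 1 was high for Gja5 (1.60, others 0.32 to 0.52), EHO 4 was high for Cdh11 (0.86, others 0.60 to 0.64), and EHO 3 was low for Gja4 (0.88, others 1.11 to 1.12). TOTM 4 was high for Cldn9 (0.27, others -0.03 to 0.0025), and TOTM 1 was low for Pcdhb6 (-4.61, others -2.63 to -2.38). DEHP 3 was high for Cdh17 (-1.55, others -1.72 to -1.71) and DEHP 1 for Cdh6 (-2.14, others -2.42 to -2.38).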

How the results depend on the processing

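Counts against control stayed at 0 members for DEHP, MEHP and TOTM under all settings tried. For EHO the 14 members became 8 with normexp and quantile normalization, 9 with quantile normalization, 25 with no filter on dim probes (over all 93), 5 with the filter on all 20 arrays, 0 with the 2 groups alone, 25 with the percentile without outlier spots, 1 without EHO 1 and 2 together, 6 without control 2 and MEHP 3, and 4 without DEHP 3 and MEHP 4; leaving out 1 array gave 1 to 32. The share of all genes called moved too, to 17.5%, 18.5%, 29.6%, 14.7%, 0.0125%, 34.1%, 0.935%, 17.7% and 7.77% in the same order. Outlier spots made up 1.24% to 1.27% of spots on control arrays and 0.15% to 0.33% on the others. The last 3 settings, the percentile without outlier spots, keeping outlier spots and counting MEHP 1 and 2 apart were chosen after seeing the data, as was running the settings on the junction partners. Calls of Pcdh7 with EHO were kept in 20 of 21 settings, of Cx39 and Cldn9 in 18, of Cdh22 in 11, and of the 10 lower members in 6 to 10. The cause of these shifts was not tested.

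MEHP against DEHP had 0 in place of 1 member with median scaling, without control 2 and MEHP 3 and without DEHP 3 and MEHP 4 (0 to 1 leaving out 1 array). EHO against DEHP had 8 with normexp, 8 with quantile and 10 with median scaling, 1 with the 2 groups alone 2 without EHO 1 and 2 and 2 without DEHP 3 and MEHP 4 (2 to 25 leaving out 1 array). TOTM against MEHP had 4 with normexp, 4 with the filter on all arrays, 4 with MEHP 1 and 2 apart, 0 with median scaling, 1 with no filter, 1 with the 2 groups alone and 0 without control 2 and MEHP 3 or without DEHP 3 and MEHP 4 (0 to 2). EHO against MEHP had 1 with normexp, with the filter on all arrays and with MEHP 1 and 2 apart (0 to 8). EHO against TOTM had 7 with the filter on all arrays, 3 with the 2 groups alone 4 without EHO 1 and 2 and 9 without DEHP 3 and MEHP 4 (6 to 31). TOTM against DEHP stayed at 0 throughout.

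Same-numbered arrays showed no pairing: their deviations from the group means correlated by -0.683 to 0.487 over 40 pairs, 16 above 0.1, and 3 of 20 arrays correlated best with their own number. With the replicate number as a block, all arrays separate, EHO against control gave 8 members (4 higher, 4 lower), TOTM against MEHP gave 4, and the junction partners gave 4 with EHO and 1 with TOTM.

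The 9 junction partners called with EHO became 4 with quantile normalization, 14 with median scaling, 0 with the 2 groups alone, 0 without EHO 1 and 2, 5 without control 2 and MEHP 3, and 1 without DEHP 3 and MEHP 4 (0 to 12 leaving out 1 array). With TOTM, 1 partner was called in place of 0 (Pkp4) with normexp, with quantile normalization, with the filter on all arrays, with MEHP 1 and 2 apart, with outlier spots kept, with the percentile without outlier spots and without EHO 1 and 2.

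Signs changed for small differences. With normexp, Cldn11 (0.056 with MEHP, 0.13 with EHO), Tjp1 (0.0029 with TOTM, 0.15 with EHO), Pcdhga9 (0.069) and Gja4 (-0.14) with EHO changed sign. With quantile normalization, and EHO, Pcdhb4 (0.023), Pcdhga9 (0.089), Cldn11 (0.056), Tjp1 (0.15) and Gja7 (-0.13) did. With median scaling, which raised the median of all genes by 0.53 with EHO, Cldn3 (0.075), Cldn11 (0.017), Cdh3 (0.11) and Gja7 (0.13) with MEHP, and Gjb2 (0.077), Cldn11 (0.40), Cdh11 (0.35), Cdh13 (0.49) and Tjp1 (0.51) with EHO did. Leaving out 1 array gave -0.29 to 0.065 for Ocln with TOTM (turned without control 2, also with MEHP 3 left out), -0.11 to 0.11 for Tjp1 with EHO (turned without EHO 2), -0.28 to 0.38 for Gja5 and -0.12 to 0.30 for Cdh11 with MEHP (turned without MEHP 3), and -0.28 to 0.60 for Cdh1 with TOTM (turned without TOTM 2). Turned without EHO 1 and 2 were Cdh2 (-0.015), Gja7 (-0.13) and Gjd3 (-0.15) with EHO. Signal near background limits what the EHO arrays can show for 28 of the 65 members.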
